A study of Arabidopsis thaliana with 4 samples.

Results

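OLEO3 (AT5G51210), AT3G01570 and AT2G25890 are 3 oleosin genes of Arabidopsis thaliana, and all of them gave higher signals in seedlings of the flc-3 mutant than in the wild type. They were chosen by name, as oleosins already seen to be higher in flc-3 on these same arrays, so the difference between the genotypes is given below as a description, with no test. Each has 1 probe set of its own in the platform annotation (248435_at, 259167_at and 266654_at), out of 13286 loci with a named probe set. None of these names carries the suffix that Affymetrix gives to probes shared between genes.

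Oleosins are small proteins with a long hydrophobic hairpin that anchors them in the surface of oil bodies, the droplets in which seeds store triacylglycerol. They coat the droplets and keep them from fusing. Their genes are best known from maturing embryos, and the proteins are broken down after germination as the oil is used.

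Whole seedlings were measured on 4 Affymetrix ATH1 arrays, 2 for each genotype in the Col-0 background. The wild type is labelled with the alleles FRI and FLC, while flc-3 is given as a knockout of AT5G10140, which is FLC, a MADS-box gene that represses flowering. In the mutant's titles FRI is in lower case, so the labels do not settle whether the genotypes also differ at FRI. All seedlings grew on agar with 3% sucrose under constant light for 6 days, were entrained for 4 days at 22 °C with 12 h of light and 12 h of darkness, and moved to constant light at 27 °C, and each array carried pooled RNA from 24, 30, 36 and 42 h after that move. The comparison belongs to a search for targets of FLC at 27 °C. Because time points were pooled, each signal is an average over a day.

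No probe set is named as FLC here, so the genotype labels were not checked through the deleted gene. RCA (Rubisco activase), the 1 measured gene of the leaf marker list, was bright, at 2169 to 2963 over the 4 arrays. Of the root markers PYK10, a root beta-glucosidase, was bright at 2723 to 3780. The root markers EXPA7 and EXPA18 were far dimmer, at 30.7 to 57.9 and 52.2 to 76.5. The array of flc-3 replicate 1 stood apart in its control probe set for 25S ribosomal RNA, at 1426 against 45.7 to 135 on the others. Its ratio of 3′ to 5′ actin control signal was 1.40 against 1.30 to 1.35 on the others, and its GAPDH ratio was 1.06 against 0.93 to 0.98. Its ubiquitin ratio of 1.50 lay within the 1.49 to 1.55 of the others. Values without that array are therefore given with the members. With 2 arrays per genotype, precision is limited for every value. In whole seedlings, more cells with a transcript and more transcript per cell cannot be told apart.

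OLEO3, a seed oleosin, had signals of 17.2 and 21.2 in the wild-type arrays against 124 and 75.8 in flc-3 (MAS5 signal, a linear intensity scaled per array). Both flc-3 arrays lay above both wild-type arrays, and flc-3 replicate 1 was the brighter of the flc-3 pair. The log2 difference, flc-3 minus wild type on log2(signal + 1), was 2.29 ± 0.24 (SE of the limma fit, n = 2 arrays per genotype), or 4.88-fold. In the wild type OLEO3 was dim, brighter than 28.6% and 32.9% of all probe sets on the respective arrays, and in flc-3 it was brighter than 75.0% and 62.6%. Without detection calls, whether those wild-type signals lay above background was not determined. Without flc-3 replicate 1 the log2 difference was 1.93.

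AT3G01570 had signals of 198 and 139 in the wild-type arrays against 764 and 604 in flc-3. The arrays of the genotypes did not overlap, and the lowest flc-3 signal was 3.04 times the highest wild-type signal. The log2 difference was 2.02 ± 0.17 (SE, n = 2 per genotype), or 4.07-fold. Unlike OLEO3, this gene was bright in both genotypes, above 84.8% and 78.0% of probe sets in the wild type and above 97.2% and 95.9% in flc-3. Without flc-3 replicate 1 the log2 difference was 1.86.

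AT2G25890 had signals of 266 and 188 in the wild-type arrays against 492 and 424 in flc-3. These groups did not overlap either, but they lay closer together, with a ratio of 1.60 between the lowest flc-3 and the highest wild-type signal. The log2 difference was 1.03 ± 0.16 (SE, n = 2 per genotype), or 2.04-fold. Its wild-type signals were already above 89.2% and 83.9% of probe sets, and those in flc-3 above 94.9% and 93.6%. Without flc-3 replicate 1 the log2 difference was 0.92.

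**Figure D1:**
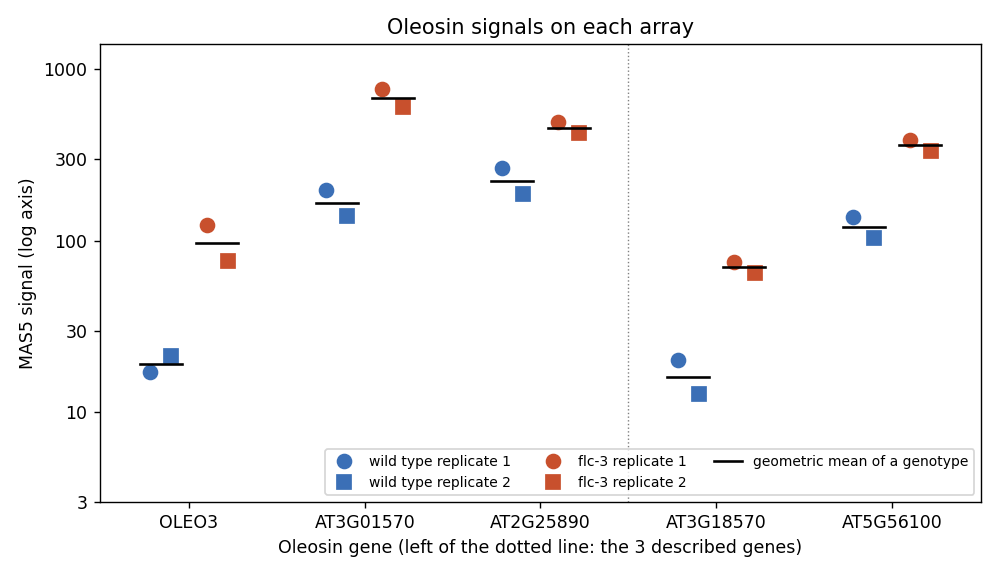
MAS5 signal (log axis) of the 3 described oleosins and, right of the dotted line, of AT3G18570 and AT5G56100 on each array, with wild-type arrays in blue, flc-3 arrays in red, circles for replicate 1, squares for replicate 2 and lines for the geometric mean of a genotype. In each gene both flc-3 arrays lie above both wild-type arrays, from 17.2 and 21.2 to 124 and 75.8 for OLEO3.

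All 3 genes passed the filter on dim probe sets, which kept 13648 with a mean signal over the 4 arrays of at least 31.2. AT3G01570 and AT2G25890 exceeded that signal on every array. OLEO3 passed through its flc-3 signals, since both of its wild-type signals were under 31.2, as were the wild-type means of 220 of the 13648 tested probe sets. A gene that enters in this way has to be higher in flc-3. Of all tested probe sets, 20.2% had both flc-3 arrays above both wild-type arrays, 1.03% were at least 2-fold higher in flc-3, and 1.75% passed an adjusted p of 0.05 in limma, 1.44% as higher in flc-3 and 0.308% as lower. Because the 3 genes were chosen on this contrast, their standing against these shares is no result. In the order of rises over all tested probe sets, OLEO3 stood at 23, AT3G01570 at 33 and AT2G25890 at 134.

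**Figure D2:**
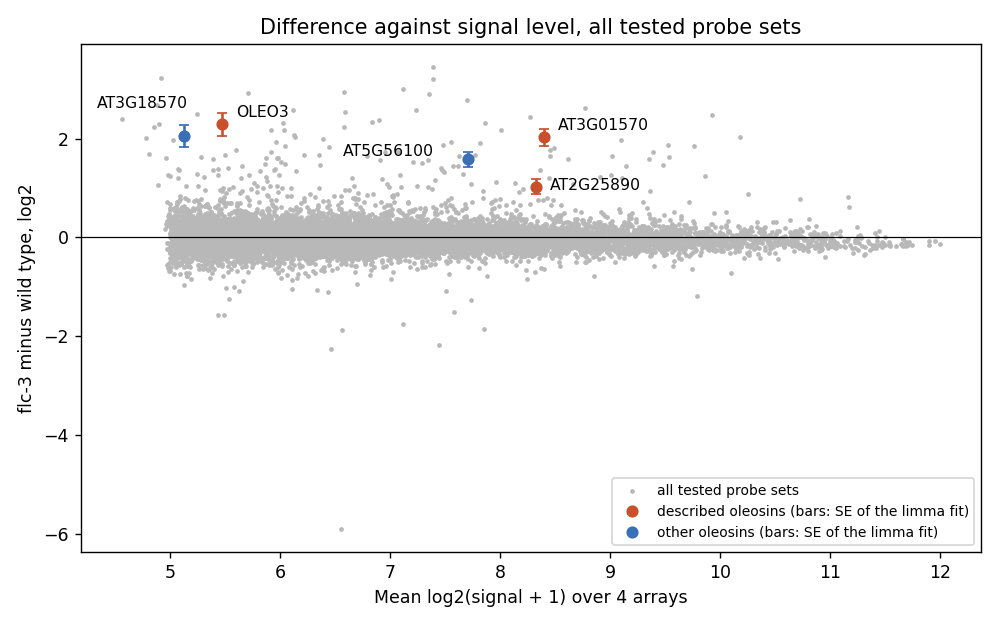
Log2 difference (flc-3 minus wild type) against mean log2(signal + 1) over the 4 arrays for all 13648 tested probe sets (grey), with the 3 described oleosins in red and the other oleosins in blue, bars showing SE of the limma fit. AT3G01570 at 2.02 and AT2G25890 at 1.03 have similar brightness, and OLEO3 at 2.29 is near the dim end.

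Of the 3 genes AT2G25890 rose least, while the order of OLEO3 and AT3G01570 was not settled. AT3G01570 and AT2G25890 moved apart by nearly the same amount on both arrays of a genotype: log2 AT3G01570 minus log2 AT2G25890 was -0.42 and -0.43 in wild-type arrays, against 0.63 and 0.51 in flc-3. Brightness of different probe sets cannot be compared as abundance. The shift between genotypes is compared here as signal only, and whether these probe sets respond alike to transcript was not tested. The difference of AT3G01570 exceeded that of AT2G25890 by 1.00 ± 0.06 on the log2 scale (SE over arrays, n = 2 per genotype, not tested). An SE taken from so few arrays alone is itself very uncertain, and is not of the same kind as the SE of the limma fit. The rise of OLEO3 exceeded that of AT2G25890 by 1.26 ± 0.46 and that of AT3G01570 by 0.26 ± 0.44. With a pseudocount of 16 the gap to AT2G25890 was 0.71, and both gaps rest on wild-type OLEO3 signals not shown to be above background. The gap to AT3G01570 is smaller than its own error, and the order of OLEO3 and AT3G01570 turned with a pseudocount of 16 (1.69 against 1.93) and without wild type replicate 1 (2.14 against 2.28). The rise of AT2G25890 was the smallest of the 3 under each processing that was tried.

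**Figure D3:**
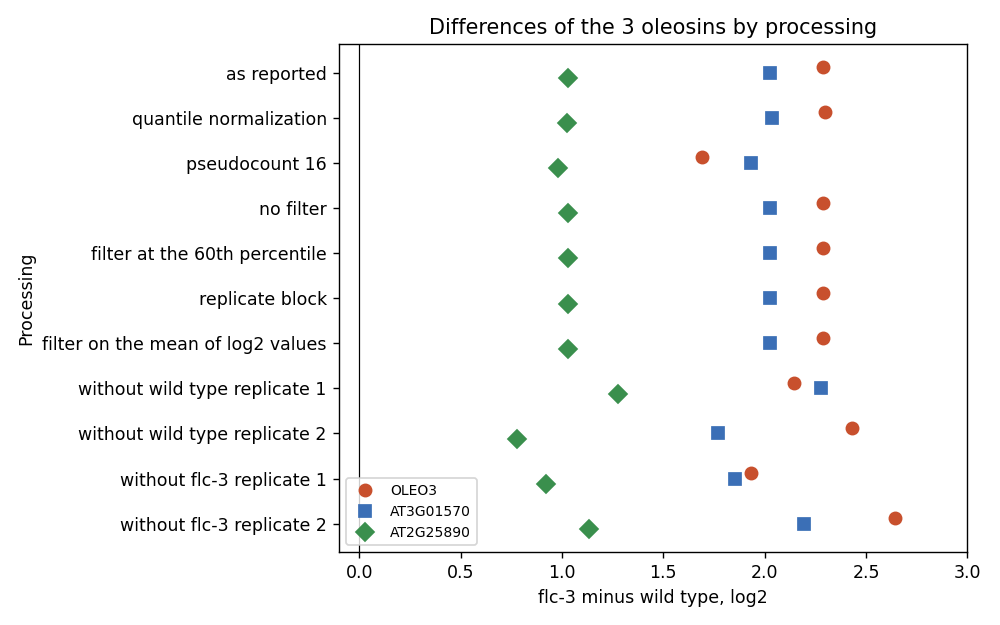
Log2 difference (flc-3 minus wild type) of OLEO3 (circles), AT3G01570 (squares) and AT2G25890 (diamonds) under each processing, including each array left out. All values lie above 0, from 0.78 for AT2G25890 without wild type replicate 2 to 2.64 for OLEO3 without flc-3 replicate 2. As the arrays of the genotypes do not overlap, leaving 1 out cannot turn the sign.

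Arrays of 1 genotype also differed in these transcripts. In the wild type, replicate 1 was above replicate 2 by 0.51 for AT3G01570 and by 0.50 for AT2G25890 on the log2 scale, while OLEO3 went the other way at -0.29. In flc-3, replicate 1 was above replicate 2 for all 3, by 0.71 for OLEO3, 0.34 for AT3G01570 and 0.21 for AT2G25890. Over all tested probe sets the median absolute difference between replicates was 0.16 in the wild type and 0.12 in flc-3, so the oleosins varied more between like arrays than a typical probe set. The residual SD was 0.38 for OLEO3, 0.31 for AT3G01570 and 0.27 for AT2G25890, against 0.18, 0.11 and 0.11 for probe sets of like brightness in the limma trend. The standard errors of the gaps between genes are not drawn towards that trend, while those of the 3 differences are. Taken from each gene's own arrays alone, the latter equal the residual SDs. Compared number by number, the difference between genotypes was 2.78 and 1.79 for OLEO3, 1.94 and 2.11 for AT3G01570, and 0.88 and 1.17 for AT2G25890.

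The oleosin list held 15 more genes, from general knowledge of the family, and 2 of them had a named probe set. AT3G18570, placed with the seed oleosins, had signals of 20.2 and 12.8 in the wild-type arrays against 75.2 and 65.3 in flc-3, and had a log2 rise of 2.05 ± 0.23 (SE, limma adjusted p = 0.00105). AT5G56100 had signals of 138 and 104 in the wild-type arrays against 387 and 336 in flc-3, and rose by 1.58 ± 0.14 (SE, limma adjusted p = 0.000291). Both genes thus had separate genotypes, and both passed, where 1.44% of all tested probe sets passed as higher. These genes too were known to be higher when the list was made, so the count is not independent evidence. AT3G18570 entered through its flc-3 signals, like OLEO3. AT5G56100 stands on the list of anther-type oleosins, a placing that is uncertain, and the 1 measured anther marker, AT5G07230, read only 1.40 to 6.46 over the 4 arrays. OLEO1, OLEO2 and OLEO4, which encode major seed oleosins, are not named in the annotation and were not analysed here.

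Among other proteins of lipid droplets, 2 of 7 tested genes rose and none fell. Of all tested probe sets, 1.44% passed as higher and 0.308% as lower. The median log2 difference of the 7 genes was 0.06, against -0.01 over all tested probe sets. This list was made with earlier results of these data known, so its count is not independent evidence. AT2G47780, a lipid droplet-associated protein gene, rose from 51.6 and 44.6 to 407 and 376, by 3.00 ± 0.12 (SE, limma adjusted p = 2.55e-06). AT5G16460, a seipin gene whose family shapes forming droplets at the endoplasmic reticulum, rose from 21.7 and 18.2 to 57.7 and 49.6, by 1.38 ± 0.19 (SE, limma adjusted p = 0.0046). The seipin gene, dim in the wild type, entered the test through its flc-3 signals. It fell below the filter without flc-3 replicate 1 and missed the threshold with no filter (limma adjusted p = 0.0635). The related lipid droplet-associated protein gene AT1G67360 read 390 and 296 in the wild type, 279 and 269 in flc-3, a log2 difference of -0.31 (limma adjusted p = 0.397), and was called lower only without wild type replicate 2 (adjusted p = 0.0467). The oil body lipase gene AT3G14360 had -0.17, and the other 3 tested members lay between -0.01 and 0.11. Of 7 caleosin genes, 2 had a named probe set, and neither passed the filter. Of 8 steroleosin genes none had one.

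Genes for breaking down and making storage oil were thinly covered. Of 22 breakdown genes, 4 were tested, and 1 of them rose, where 1.44% of all tested probe sets passed as higher. That list too was made with earlier results of these data known, so the count is not independent evidence. ICL, isocitrate lyase of the glyoxylate cycle, which turns fatty acid carbon towards sugar, went from 477 and 356 to 2115 and 2491, by 2.48 ± 0.16 (SE, limma adjusted p = 4.5e-05). SDP1, the main lipase of seed oil, had signals of 95.4 and 91.1 in wild-type arrays against 99.6 and 90.5 in flc-3, so that the genotypes overlapped and the difference was 0.03 ± 0.13 (SE, limma adjusted p = 0.962). AT4G24160, a lipid hydrolase gene related to human CGI-58, had a difference of 0.24 (limma adjusted p = 0.575). The lists of breakdown and synthesis together counted 1 call in every processing tried. Of 14 synthesis genes only AT3G44830 had a named probe set, and its signals of 13.0 to 20.3 were under the filter.

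Seed maturation genes were compared with the oleosins as the setting in which oleosins are usually made. Of 16 regulators 2 were tested and 1 passed as higher, where 1.44% of all tested probe sets did. As earlier results of these data were known when the regulators were listed, this count is not independent evidence. EEL, a bZIP transcription factor of seed maturation, rose from 27.0 and 16.4 to 81.0 and 55.9, by 1.63 ± 0.26 (SE, limma adjusted p = 0.0106), and missed the threshold without flc-3 replicate 1 (adjusted p = 0.0996) or with no filter (0.113). Both wild-type signals of EEL were under the filter signal of 31.2, so it too entered the test through flc-3. BZIP53, another bZIP factor that acts on seed storage genes, had 0.07 (limma adjusted p = 0.836), at 263 to 287 on all arrays. ABI3, FUS3, LEC1 and LEC2, the main regulators of the seed programme, have no named probe set and were not analysed here.

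Of 12 seed storage genes, 3 were tested and all 3 rose, where 1.44% of all tested probe sets passed as higher. PAP85, a vicilin-type storage protein gene, rose by 3.44 ± 0.20 (SE, limma adjusted p = 3.29e-05), from 63.0 and 39.5 to 633 and 483. The cupin genes AT4G36700 and AT2G28490 rose by 2.38 and 1.21 (limma adjusted p = 3.29e-05 and 0.00333), the second missing the threshold with no filter (0.0501). These cupins were put on the list with their rise known, so the count of storage genes is not independent evidence. AT1G03890, a cruciferin-type gene, was read at 2.64 to 11.8 and was not tested.

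Of 4 tested tissue markers 0 passed in limma, and 1, EXPA7, had an unadjusted p under 0.05, where 1.75% and 12.1% of all tested probe sets did. RCA had a difference of -0.15 (limma adjusted p = 0.825), the 1 measured gene of 9 on the leaf list. Of 4 root markers 3 were measured: EXPA7 and EXPA18, expansins of root hairs, had 0.69 and 0.34 (limma adjusted p = 0.118 and 0.429) and PYK10 had -0.09. EXPA7 and EXPA18 each had both flc-3 arrays above both wild-type arrays, as had 20.2% of all tested probe sets. Signals summed over the root list, nearly all of them from PYK10, were 3182 to 3867 in the wild type and 2841 to 3899 in flc-3, and no marker was at 0. Their part in the oleosin difference was not tested. Over all lists, without the 3 described genes, 9 of 22 tested genes passed in limma as higher and none as lower, where 1.44% and 0.308% of all tested probe sets did. This count is no independent evidence: several of the 9 were listed with their rise known, and 3 of them (AT3G18570, AT5G16460 and EEL) entered the test through their flc-3 signals. At an unadjusted p under 0.05 there were 10 higher and 1 lower, the latter AT1G67360, where 12.1% of all tested probe sets had such a p in either direction.

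**Figure D4:**
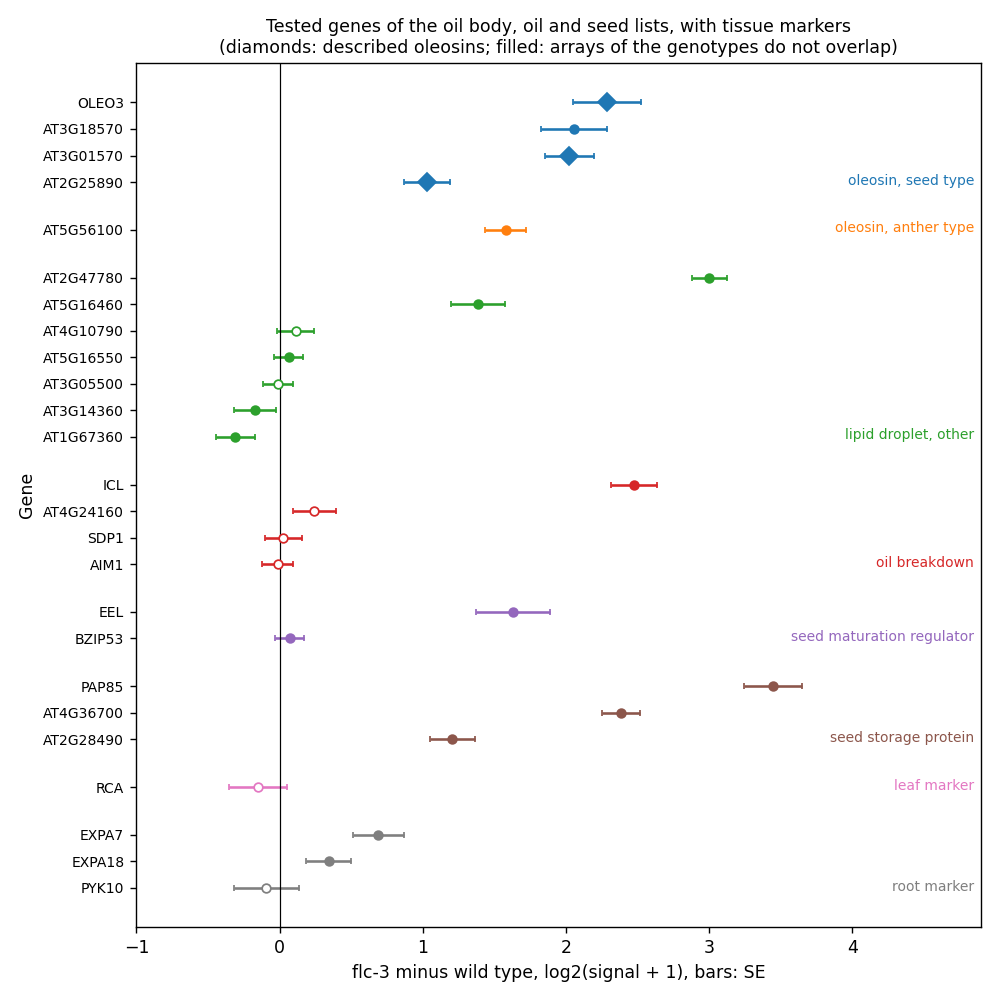
Log2 difference (flc-3 minus wild type) with SE of the limma fit for each tested gene of the oleosin, lipid droplet, oil breakdown, seed maturation, seed storage and marker lists. Diamonds are the 3 described oleosins and filled symbols mark genes whose arrays do not overlap between genotypes. Within the lipid droplet list AT2G47780 at 3.00 and AT5G16460 at 1.38 stand apart from the other 5 genes, which lie between -0.31 and 0.11.

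The genes whose pattern over the 4 arrays was most like each oleosin were found by Euclidean distance between log2(signal + 1) values, each gene centred on its own mean, among the 7273 tested probe sets with a locus. This distance holds the step between genotypes on which the oleosins were chosen, so genes with a like rise have to come out nearest. For AT3G01570 the nearest was another oleosin, AT3G18570, at a distance of 0.13, followed by AT1G65090 (0.16), AT1G23070 (0.18), ATOEP16-2 (0.20) and AT1G54860 (0.20). Each of these was higher on replicate 1 than on replicate 2 in both genotypes, as AT3G01570 was. Genes this near have to share that order, since the distance is taken over the same arrays. For AT2G25890 the nearest were AT1G02700 (distance 0.08), AT5G01300 (0.09), AT4G27450 (0.13), AT1G16850 (0.16) and AT5G45310 (0.19). AT1G02700, for example, had signals of 180 and 118 in the wild-type arrays against 332 and 285 in flc-3. OLEO3 had no neighbour as close. Its nearest were AT3G16120 (distance 0.44), AT1G33790 (0.44), AT1G04660 (0.47), the seed cupin gene AT4G36700 (0.47) and AOP3 (0.50). All of these but AT4G36700 entered the test through their flc-3 signals. In the wild-type arrays AT3G16120, AT1G04660 and AOP3 read 7.94 to 13.1, and AT1G33790 read 24.4 and 32.6. Between the oleosins themselves the distance was 0.67 for OLEO3 and AT3G01570, 1.00 for AT3G01570 and AT2G25890, and 1.42 for OLEO3 and AT2G25890. Correlations over the 4 arrays, which mostly follow the step between genotypes, were 0.99 for AT3G01570 and AT2G25890, 0.96 for OLEO3 and AT3G01570 and 0.91 for OLEO3 and AT2G25890.

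**Figure D5:**
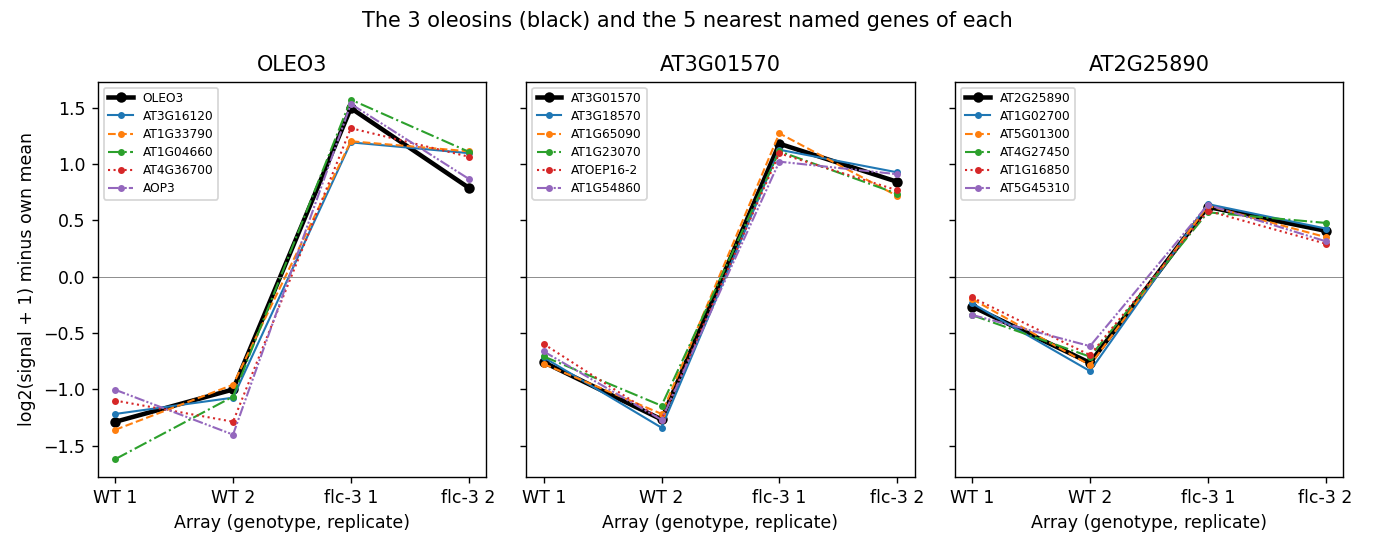
Log2(signal + 1) minus each gene's own mean on the 4 arrays for each oleosin (black) and its 5 nearest named genes (coloured, thinner lines). The curves of AT3G01570 and AT2G25890 are closely followed, with distances of 0.13 to 0.20 and 0.08 to 0.19, and that of OLEO3 less so, with 0.44 to 0.50.

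The 3 genes lie on different chromosomes, and the loci beside them were compared as well. Of the 5 loci on either side of each gene in the gene table, those with a tested probe set had differences of -0.43 to 0.14 beside OLEO3 (3 probe sets), of -0.24 to -0.02 beside AT3G01570 (3 probe sets) and of -0.25 to 0.27 beside AT2G25890 (6 probe sets). In limma 0 of these 12 passed an adjusted p of 0.05 and 1, AT5G51220 beside OLEO3, had an unadjusted p under 0.05. Over all tested probe sets those shares were 1.75% and 12.1%, so the counts are near the background and say nothing particular about these neighbours. The nearest measured locus to OLEO3, AT5G51220, read 77.6 and 99.5 in wild-type arrays against 57.9 and 73.3 in flc-3. AT3G01560, next to AT3G01570, read 114 and 123 in wild-type arrays against 105 and 96.1 in flc-3. AUR2, next to AT2G25890 and coding for an Aurora kinase, read 39.2 and 45.1 in wild-type arrays against 48.2 and 53.6 in flc-3.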

How the data were processed

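Each array's deposited values are linear MAS5 signal intensities, made by the authors with MAS5 per the submitters' processing notes (no version is given in the labels). MAS5 reduces the probe pairs to 1 signal per probe set and scales the arrays. All 4 arrays had a 2% trimmed mean of 100.01, so this scaling was kept. Of 22810 probe sets, 64 controls were left out, and 13436 of the other 22746 (59.1%) were tied to 1 locus by a platform annotation updated through a TAIR10.1 gene table. No coordinates are given, as no build is named. Signals were taken as log2(signal + 1), which understates changes of dim genes, and probe sets whose mean signal was under the 40th percentile were left out.

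Differences were tested, 2-sided, over the remaining 13648 with limma 3.58.1 in R 4.3.3 (lmFit, eBayes with an intensity trend), with 1 term, genotype, and Benjamini-Hochberg adjustment at 0.05. The fit was also run on values simulated from its own fitted means and variances with normal errors. That run cannot show whether the p-values hold for these arrays. The labels do not say whether replicates were separate cultures, and the p-values then reflect only the spread of these arrays, possibly technical. The members and gene lists were chosen with earlier results of these data known, from general knowledge. Genes named beside the 3 oleosins are the other measured oleosins, on each list those that passed and, of the rest, the 2 with the smallest p, and the 5 nearest in pattern. Genes named outside this rule, the chromosome neighbours among them, were chosen after their values were seen. Alternatives were quantile normalization, a pseudocount of 16, eBayes without the trend, no filter, the 60th percentile as filter, the replicate number as a block, each array left out and, added after seeing the data, a filter on the mean of log2 values. Protein and promoter sequences were not used here.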

Additional observations from a re-analysis of the deposited data

How the results depend on the processing

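The log2 differences of the 3 oleosins stayed above 0 under every alternative run, from 1.69 to 2.64 for OLEO3, 1.77 to 2.28 for AT3G01570 and 0.78 to 1.28 for AT2G25890. In each gene both flc-3 arrays lay above both wild-type arrays, so leaving out an array or adding a larger constant could not turn the sign. The filters and the block leave the estimate unchanged. The constant sign was therefore largely fixed in advance. All but 1 of the values moved by less than the residual SD of the gene. With 2 arrays per genotype, leaving out 1 array cannot move a difference by more than that SD, so this is no sign of stability. The exception was OLEO3 with a pseudocount of 16, at 1.69, as the constant weighs most on its dim wild-type signals. Leaving out 1 array gave 1.93 to 2.64, 1.77 to 2.28 and 0.78 to 1.28. OLEO3 was under the filter at the 60th percentile. The count of all called probe sets was 239, and became 121 with no filter, 230 with the filter on the mean of log2 values and 146 (without flc-3 replicate 1) to 374 (without wild type replicate 1) with 1 array left out. With the replicate number as a block it was 780, in a fit with 1 residual degree of freedom whose p-values are not reliable. The block left the 3 differences at 2.29, 2.02 and 1.03. Deviations of same-numbered arrays correlated at 0.09, so the numbers were not taken as pairs. The 2 other oleosins passed in every fit that tested them, and 1 was tested, and passed, at the 60th percentile. The 2 other oil body genes called became 1 with no filter and 1 at the 60th percentile, and 1 (without flc-3 replicate 1) to 3 (without wild type replicate 2) with 1 array left out. The 4 seed maturation and storage genes called became 2 with no filter, and 3 (without flc-3 replicate 1) to 4 with 1 array left out.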
